A study of Mus musculus with 11 samples.

Results

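Gene expression in the CA1 region of the hippocampus was compared with that in the neocortex of control mice. The comparison used 6 of the 11 libraries of the series, chosen by their labels: 3 CA1 libraries (animals D5134, D5135 and D5138) and 3 neocortex libraries (animals D5129, D5134 and D5135). They came from 4 animals, and D5134 and D5135 gave both tissues. The mice were 13 to 14 weeks old, and all were male except D5138, a female that gave CA1 only. The other 5 libraries came from knockout (KO) mice, labelled Camk2a-Cre;Dicer flox/flox, in which Cre is driven in forebrain excitatory neurons; 2 were from CA1 and 3 from neocortex, and they were used here only to repeat the tissue comparison. The labels call the other mice controls and give no alleles for them. Polyadenylated RNA of whole dissected tissue was sequenced, so fewer cells of a type and less RNA per cell cannot be told apart.

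CA1 is one field of the hippocampus proper and holds a single, tightly packed layer of pyramidal neurons that receive input from CA3 and send output to the subiculum and the entorhinal cortex. It lies next to CA2 and CA3 and faces the dentate gyrus, whose granule cells feed CA3. The neocortex has several layers, with separate types of excitatory neuron in layers 2/3, 4, 5 and 6, and it differs from CA1 in transcription factors, receptors, peptides and guidance molecules that have long served as regional markers.

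The labels' protocols name a stranded mRNA kit for the neocortex, where ERCC spike-in RNAs were added, and an unstranded one for CA1. Kit and tissue therefore cannot be told apart in any library, and results are given for protein-coding genes only, without Y-linked and X-inactivation genes. Gene reads summed to 43144097 to 54159235 per neocortex library and to 26250135 to 35684618 per CA1 library. The mitochondrial share of reads was 5.97% to 6.57% in the neocortex and 4.63% to 4.97% in CA1, and that of genes with antisense names was 0.114% to 0.117% and 0.696% to 0.707%. Levels are given in CPM, the reads of a gene per 1000000 reads of the library after scaling. The correlation of log2 CPM was 0.9933 to 0.9955 between libraries of one tissue and 0.9368 to 0.9453 between tissues. Summed Y-linked genes, used to check the sex labels, stood at 70.8 and 72.1 CPM in the 2 libraries of D5134, at 153 to 162 CPM in the other male libraries and at 0.112 CPM in the female one.

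The regional labels were checked against 6 markers. The 3 neocortical markers were higher in the neocortex and 2 of the 3 CA1 markers were higher in CA1. Lamp5, a lysosome-associated membrane protein of upper-layer neurons (chromosome 2, 136052239 to 136069917 in the build GRCm38), stood at 311, 355 and 268 CPM in the neocortex of D5129, D5134 and D5135. In the CA1 of D5134, D5135 and D5138 its level was 42.0, 43.6 and 47.2 CPM. Every neocortex library was thus far above every CA1 library, with a log2 difference (CA1 minus neocortex) of -2.81 (SE 0.10, edgeR adjusted p = 3.08e-09). Cux2, a homeobox factor of layers 2/3 and 4 (chromosome 5, 121856366 to 122050102), was at 192, 176 and 195 CPM in the neocortex and at 48.1, 35.01 and 38.7 CPM in CA1. Its log2 difference was -2.21 (SE 0.11, edgeR adjusted p = 4.25e-08). Rorb, a nuclear receptor of layer 4 (chromosome 19, 18930605 to 19111196), was at 61.7, 55.8 and 62.9 CPM against 18.3, 19.4 and 20.1 CPM, a log2 difference of -1.64 (SE 0.07, edgeR adjusted p = 1.19e-09).

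Neurod6, a basic helix-loop-helix factor of pyramidal neurons (chromosome 6, 55677822 to 55681263), was at 73.3, 77.4 and 85.9 CPM in the neocortex and at 194, 212 and 231 CPM in CA1. Both tissues expressed it, and the groups did not overlap (log2 difference 1.43, SE 0.08, edgeR adjusted p = 9.98e-09). Pou3f1, a POU-domain factor (chromosome 4, 124656807 to 124660655), rose from 31.8, 35.4 and 26.1 CPM to 60.6, 69.9 and 65.4 CPM (log2 difference 1.07, SE 0.10, edgeR adjusted p = 4.08e-06). Without the neocortex library of D5135 its log2 difference was 0.96, under the limit used for a call. Wfs1, the membrane protein of the endoplasmic reticulum that marks CA1 pyramidal neurons (chromosome 5, 36966104 to 36989205), was at 101, 105 and 133 CPM in the neocortex and at 167, 146 and 211 CPM in CA1. The groups did not overlap, but the log2 difference of 0.63 (SE 0.17, edgeR adjusted p = 0.0230) was below that limit. In the KO libraries the tissue difference of Wfs1 was -0.07 (SE 0.07, edgeR adjusted p = 0.482), and the change in that difference between genotypes did not pass its own test (edgeR interaction adjusted p = 0.349).

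**Figure D1:**
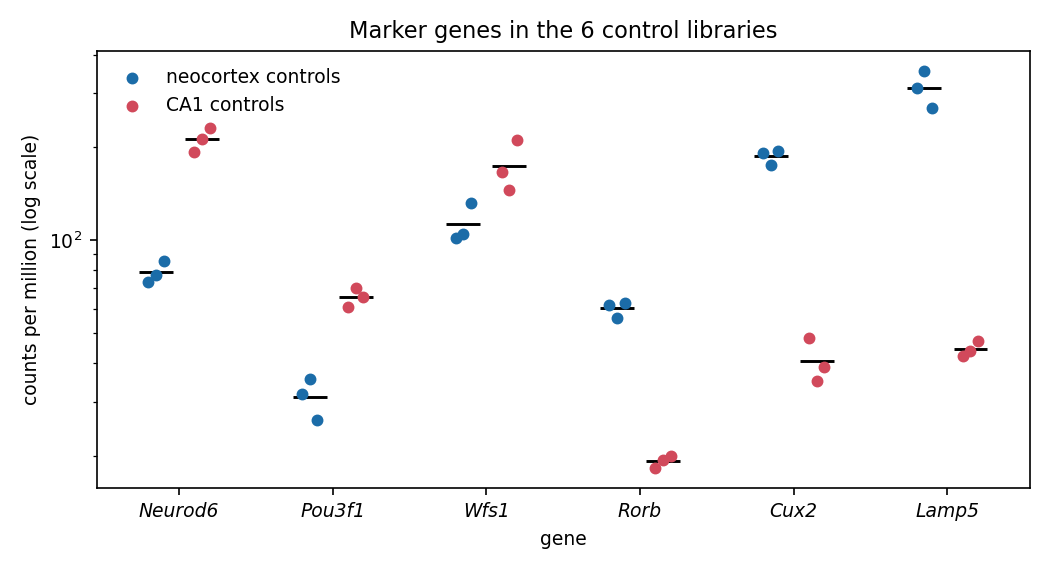
CPM (log axis) of 6 regional marker genes in each control library; points are libraries, 3 per tissue, and black lines are means. Lamp5, Cux2 and Rorb sit higher in the neocortex, Neurod6 and Pou3f1 higher in CA1, and Wfs1 stands at 101.4 to 132.6 CPM in the neocortex and at 145.7 to 211.0 CPM in CA1.

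Across the 14932 protein-coding genes tested, a difference was called where the edgeR adjusted p was under 0.05 and the log2 difference was at least 1 either way. By this rule 1061 genes (7.11%) were higher in CA1 and 570 (3.82%) were higher in the neocortex. Counts of called list members given below are to be read beside these shares. The adjusted p alone called 7083 genes (47.4%), and the 2 groups did not overlap for 8493 genes (56.9%). The median log2 difference over all tested genes was -0.032 and the median absolute difference was 0.26. At least 4-fold differences were called for 512 genes in CA1 and 133 in the neocortex.

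In this fit, CA1 calls outnumbered neocortex calls among genes close to a gene of the other strand. An unstranded library does not keep the strand of a read. Kit follows tissue here, so the part of the kit in these counts was not tested. Of the 10254 tested genes with an annotated gene on the opposite strand within 5 kb, 811 (7.91%) were called higher in CA1 and 316 (3.08%) higher in the neocortex. Of the 4678 genes with none that near, 250 (5.34%) were higher in CA1 and 254 (5.43%) higher in the neocortex. Fitting such genes alone gave 257 higher in CA1 and 222 higher in the neocortex. In the KO libraries, 288 of 4879 such genes (5.9%) were higher in CA1 and 215 (4.41%) higher in the neocortex. Where opposite-strand exons covered 10% or more of a gene's exon length, 300 of 1677 genes (17.9%) were called higher in CA1 and 40 (2.39%) higher in the neocortex. In all, 40 genes were near-exclusive to CA1 (at least 5 CPM in each CA1 library and under 0.2 CPM in each neocortex library), 29 of them with such exon overlap, and no gene was near-exclusive to the neocortex. The limit of 5 kb was chosen after the data were seen. Below, genes with no opposite-strand gene within 5 kb are called isolated. Of list members tested, 3 of 7 CA1 pyramidal, 2 of 5 CA2, 2 of 4 CA3 and 2 of 7 dentate markers were isolated. So were 9 of 29 transcription factors, 7 of 25 glutamate, 7 of 14 GABA and 16 of 32 monoamine receptors. Layers 2/3, 4 and 6 had 3 of 6, 3 of 4 and 6 of 9. Also isolated were 13 of 21 neuropeptides, 6 of 13 interneuron markers, 22 of 51 channels and 11 of 17 immediate early genes. The others were 5 of 23 calcium, 9 of 33 guidance, 8 of 18 ephrin and 10 of 24 Wnt genes.

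**Figure D2:**
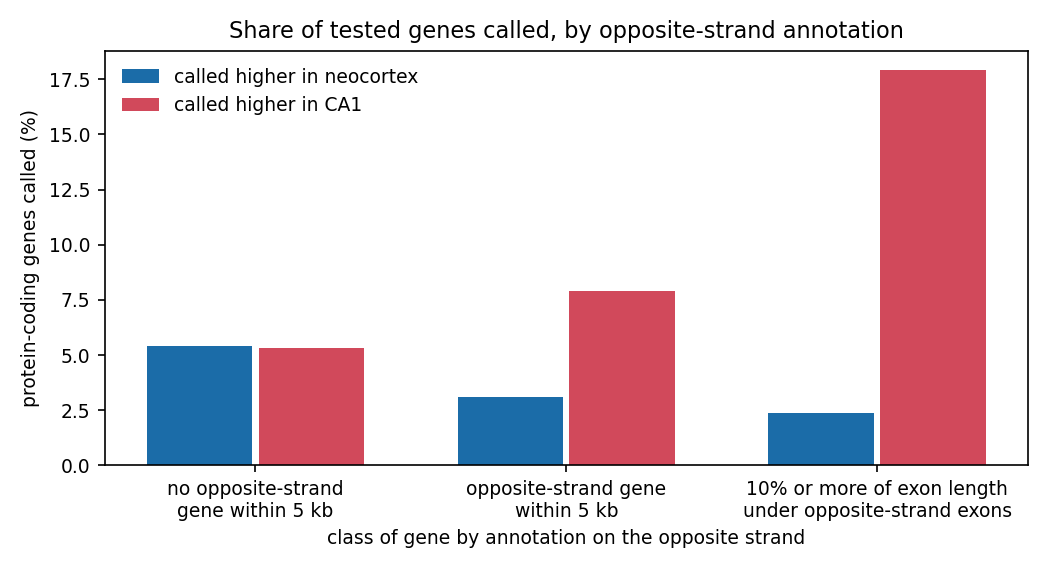
Percent of tested protein-coding genes called higher in the neocortex or in CA1, in 3 classes of annotation on the opposite strand; the second class contains the third. Bars are near equal for isolated genes (5.43% and 5.34%) and stand at 2.39% and 17.9% where 10% or more of the exon length lies under opposite-strand exons.

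The 12 largest CA1 differences left after genes with 10% or more exon overlap were set aside all had an opposite-strand gene within 5 kb, compared with 7 of the 12 largest neocortex differences and 68.7% of all tested genes. Tmem54, which encodes a transmembrane protein, had 0 reads in the 3 neocortex libraries and 15.9 to 20.1 CPM in CA1, which was at least 876-fold higher against a floor of 3 reads over the neocortex group. Its end lies inside Hpca, which encodes the calcium sensor hippocalcin on the other strand and was itself at 654.1 CPM in the neocortex and 1666 CPM in CA1. Klhl34 was at 0 to 0.06 CPM against 56.3 to 60.9 CPM. It lies beside Cnksr2, at 239.5 CPM in the neocortex and 343.7 CPM in CA1. Hipk4, a kinase gene beside Pld3 (760.8 and 532.0 CPM), was at 0.17 to 0.30 CPM against 66.2 to 72.8 CPM. Il4, the gene of interleukin-4, lies beside Kif3a (95.8 and 121.9 CPM) and was at 0 to 0.04 CPM against 5.61 to 5.76 CPM. Kpna7 had 0 reads in the 3 neocortex libraries and 7.84 to 9.34 CPM in CA1. The opposite-strand gene that it overlaps, 1700018F24Rik, was at 0 CPM in both tissues. On the mitochondrial genome, mt-Nd6, which overlaps mt-Nd5 on the opposite strand, was at 54.5 to 99.6 CPM in the neocortex and 1673 to 1767 CPM in CA1; it was picked out after its values were seen. Whether the reads of such genes came from their own strand was not tested.

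Among isolated genes the largest CA1 differences included a set of signalling molecules and receptors. Fibcd1, a chitin-binding membrane protein used as a CA1 marker (chromosome 2, 31813290 to 31846005), was at 9.79, 9.35 and 11 CPM in the neocortex and at 159, 157 and 156 CPM in CA1. The spread within each tissue was small against the log2 difference of 3.97 (SE 0.07, edgeR adjusted p = 2.51e-13). Npy2r, a receptor of neuropeptide Y (chromosome 3, 82538383 to 82548084), was at 2.47, 2.53 and 4.94 CPM against 44.6, 57.7 and 54.5 CPM (log2 difference 3.98, SE 0.28). Nts, the neurotensin precursor, was at 0.64, 0.45 and 0.72 CPM against 9.40, 9.59 and 10.2 CPM (log2 difference 4.00, SE 0.18). Ntf3, which encodes the growth factor neurotrophin-3, was at 0.34 to 0.52 CPM in the neocortex and 5.08 to 5.87 CPM in CA1. Htr4, a serotonin receptor coupled to cyclic AMP, was at 0.64 to 1.08 CPM and 12.4 to 13.4 CPM. Genes of this group were chosen for large differences without overlap, so that they do not overlap follows from the choice.

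The remaining isolated genes of that group were Krt2, a keratin (0.11 to 0.21 against 6.33 to 8.88 CPM), and Gpr101, an orphan receptor (0.05 to 0.68 against 7.58 to 12.4 CPM). Ndst4, an enzyme that modifies heparan sulfate, was at 0.80 to 1.72 CPM against 14.1 to 26.6 CPM. Kl, which encodes klotho, was at 1.84 to 2.46 CPM against 16.2 to 25.9 CPM. Lct, the lactase gene and a marker of dentate granule cells, and Lhx9, a homeobox gene also known from the thalamus, are described with their lists. Lars2, the mitochondrial leucyl-tRNA synthetase, stood at 102, 118 and 104 CPM in the neocortex and at 782, 4083 and 2076 CPM in CA1. Its CA1 libraries spread widely, and with each animal as a block the log2 difference of 4.01 did not pass (edgeR adjusted p = 0.327).

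On the neocortex side, isolated genes with large differences included regulators of small GTPases and a potassium channel. Rasgef1c, which encodes an activator of Ras-type proteins (chromosome 11, 49901835 to 49980994), was at 40.0, 43.2 and 45.8 CPM against 4.75, 3.50 and 3.77 CPM (log2 difference -3.43, SE 0.11, edgeR adjusted p = 5.24e-11). Kcnh4, a voltage-gated potassium channel, was at 31.9 to 35.5 CPM against 4.49 to 6.33 CPM. Stard8, a GTPase-activating protein of upper layers, was at 52.3 to 71.0 CPM against 10.4 to 12.2 CPM, and Exph5, an effector of Rab27, at 13.1 to 19.4 CPM against 2.75 to 3.03 CPM. Each of these neocortex genes had reads in every CA1 library.

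Cartpt, the precursor of the peptide CART, was at 6.47 to 7.72 CPM in the neocortex and 0.59 to 1.30 CPM in CA1. Cited4, a transcriptional coactivator, was at 4.75 to 6.59 CPM against 0.56 to 1.34 CPM, and Adam33, a metalloprotease, at 9.39 to 10.7 CPM against 0.71 to 1.56 CPM. Atp6ap1l (11.3 to 11.7 against 0.77 to 2.19 CPM) and Mei1, a meiosis gene (7.11 to 8.40 against 1.04 to 1.82 CPM), were also in the group, as were Lamp5 and Foxp2. Outside the isolated genes, Igfn1, an immunoglobulin and fibronectin domain protein, had the largest neocortex difference: 52.6, 52.3 and 48.5 CPM against 1.82, 0.95 and 1.73 CPM (log2 difference -5.10, SE 0.16, edgeR adjusted p = 1.10e-10). Myl4, a myosin light chain, was at 24.7 to 27.9 CPM against 1.37 to 2.19 CPM.

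**Figure D3:**
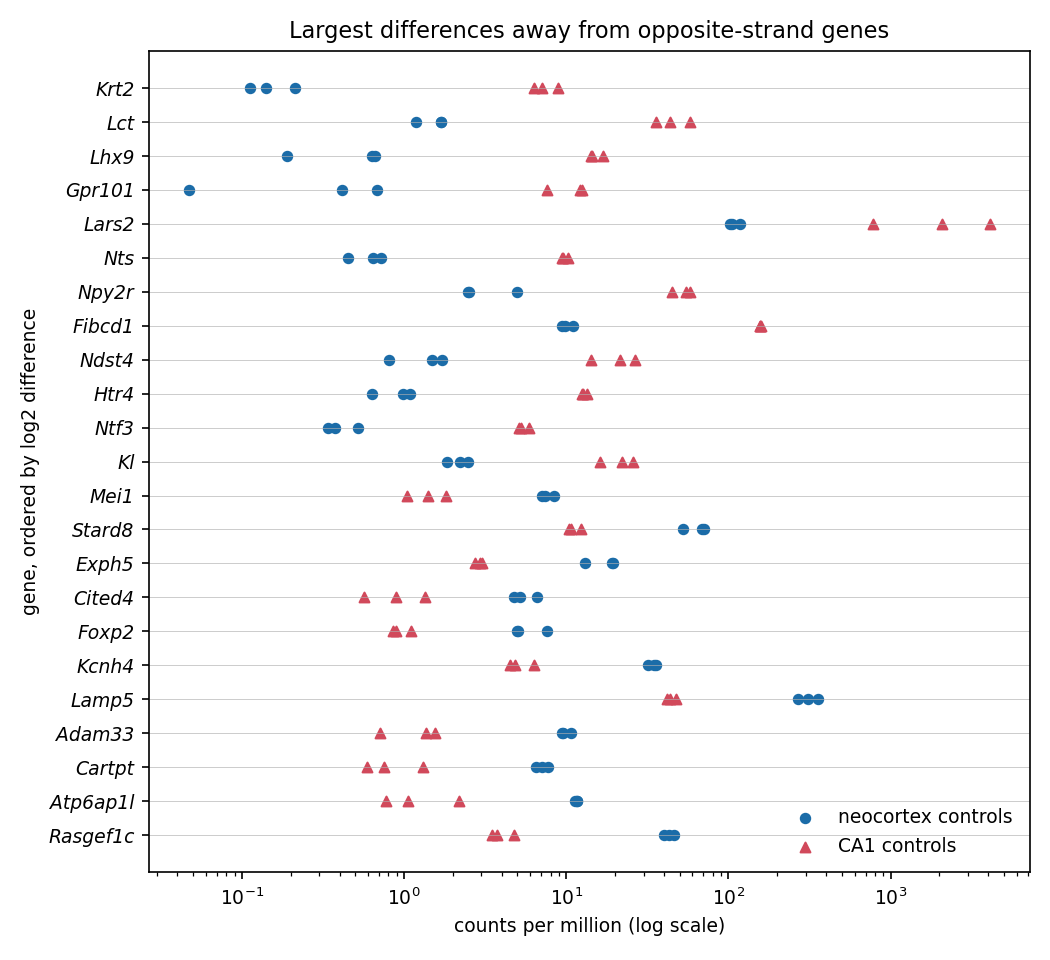
CPM (log axis) in each control library for 12 isolated genes with the largest CA1 differences and 11 with large neocortex differences, ordered by log2 difference; circles are neocortex and triangles CA1 libraries, 3 each. Genes were chosen for groups that do not overlap, so all 23 are separate by the choice; the CA1 libraries of Lars2 spread from 782.2 to 4083 CPM.

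Hippocampal field markers were called higher in CA1 or not called, and none was called higher in the neocortex. Of 7 CA1 pyramidal markers, 5 were called higher in CA1 (Fibcd1, Spink8, Man1a, Neurod6 and Pou3f1), with a median log2 difference of 1.43. Of the 5, Fibcd1 alone is isolated. The other isolated members, Wfs1 and Mpped1, were not called. Man1a, a mannosidase of the Golgi, was at 29.1 to 31.1 CPM in the neocortex and 89.2 to 93.1 CPM in CA1. Spink8, a protease inhibitor, was at 0 to 0.19 CPM against 5.17 to 6.50 CPM. Mpped1, which encodes a phosphoesterase, was level at 68.2 to 78.5 CPM and 67.6 to 79.8 CPM (log2 difference 0.01, SE 0.08).

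Some markers of neighbouring fields were also called higher in CA1. Of 5 CA2 markers tested, 3 were called (median log2 difference 1.13): Rgs14, a regulator of G protein signalling (39.9 to 50.3 against 89.4 to 100.5 CPM), Amigo2, an adhesion protein (6.53 to 9.12 against 19.1 to 23.7 CPM), and Map3k15, a kinase (1.72 to 2.29 against 76.7 to 77.8 CPM). Of the exon length of Map3k15, 13.9% lies under opposite-strand exons. Ccdc3, also of the CA2 list, was lower in CA1 (18.5 to 19.6 against 12.3 to 16.2 CPM, log2 difference -0.39, edgeR adjusted p = 0.00736). Opposite-strand exons cover 69.1% of the exon length of Ccdc3. Cacng5 had a log2 difference of 0.44. Of 4 CA3 markers, 2 were called (median 1.12): Grik4, a kainate receptor subunit (24.9 to 27.7 against 60.6 to 68.8 CPM), and Iyd, an iodotyrosine deiodinase (0.08 to 0.32 against 1.28 to 3.03 CPM). Bok (log2 difference 0.17, edgeR adjusted p = 0.0997) and Cdh24 (0.93) were not called. Isolated genes made up 1 of the 3 CA2 calls and 1 of the 2 CA3 calls.

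Dentate granule cell markers made up the list with the highest median, a log2 difference of 3.01, and 6 of 7 were called higher in CA1. Among the 6 were both of the 2 isolated genes tested. Prox1, the homeobox factor of granule cells, was at 14.2, 14.5 and 18.0 CPM in the neocortex and at 107, 135 and 135 CPM in the CA1 libraries (log2 difference 3.01, SE 0.12, edgeR adjusted p = 1.16e-08). Dsp, which encodes desmoplakin, was at 0.17, 0.05 and 0.25 CPM against 50.2, 47.4 and 59.8 CPM; 5.17% of its exon length lies under exons of an opposite-strand gene. Lct was at 1.18 to 1.70 CPM against 35.95 to 58.1 CPM, Tdo2, a tryptophan dioxygenase, at 0.28 to 0.76 CPM against 7.39 to 9.76 CPM, and C1ql2, a synaptic organizer, at 4.09 to 6.004 CPM against 27.0 to 33.5 CPM. Summed over the list, the level was 36.3 to 41.2 CPM in the neocortex and 261 to 331 CPM in CA1. No list member was at 0 in CA1. The part of granule cells in the other CA1 differences was not tested.

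The lists of layers 2/3, 4 and 6 had medians below 0 and no CA1 call, and that of layer 5 a median above 0. All 6 tested markers of layer 2/3 were lower in CA1 at an adjusted p under 0.05 and 5 were called higher in the neocortex (median log2 difference -1.83): Lamp5, Stard8, Cux2, Cux1 and Otof, of which 2 are isolated. Otof, the calcium sensor otoferlin, was at 23.5 to 29.5 CPM against 8.79 to 10.5 CPM. Rasgrf2, an activator of Ras-type proteins, fell just short at a log2 difference of -0.95 (SE 0.07). Of 4 layer 4 markers, 3 were called higher in the neocortex (median -1.39): Rspo1, a secreted activator of Wnt signalling (9.69 to 12.8 against 1.16 to 2.005 CPM), Rorb, and Whrn, a scaffold protein (63.2 to 70.9 against 26.5 to 33.3 CPM). Scnn1a, a sodium channel subunit of the same list, was near level (log2 difference 0.05, edgeR adjusted p = 0.781).

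Of 9 layer 6 markers, 5 were called higher in the neocortex, with a median log2 difference of -1.22. Foxp2, a forkhead factor of corticothalamic neurons (chromosome 6, 14901349 to 15441977), was at 4.99, 5.01 and 7.59 CPM in the neocortex and at 0.85, 1.10 and 0.89 CPM in CA1. Syt6, a synaptotagmin, was at 25.2 to 28.4 CPM against 6.78 to 7.66 CPM, and Cplx3, a complexin of subplate-derived neurons, at 26.1 to 32.0 CPM against 8.16 to 15.2 CPM. Ccn2, another marker of these deep cells, was called without a block but not with each animal as a block (log2 difference -1.66, edgeR adjusted p = 0.462), and of the 6 libraries only those from the CA1 of D5134 and D5135 could be left out without losing the call; 23.2% of its exon length lies under opposite-strand exons. Members of the list above 0 were Nr4a2, a nuclear receptor (61.2 to 85.7 against 82.96 to 117 CPM, log2 difference 0.54, edgeR adjusted p = 0.0475), and Tle4, a corepressor (59.0 to 65.3 against 67.0 to 77.4 CPM, log2 difference 0.20, edgeR adjusted p = 0.0300). Of the 5 layer 6 calls, 2 are isolated.

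The layer 5 list was mixed, with 1 of 10 markers called higher in CA1, 2 called higher in the neocortex and a median log2 difference of 0.20. Etv1, an ETS factor, was at 6.45 to 9.43 CPM against 16.6 to 21.3 CPM. Rbp4, a retinol carrier, was at 14.1 to 17.2 CPM against 5.64 to 8.24 CPM, and Qrfpr, a peptide receptor, at 2.48 to 3.41 CPM against 1.03 to 1.45 CPM.

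Among 29 forebrain transcription factors, 5 were called in each direction, and the median log2 difference was 0.17; 2 of the CA1 and 3 of the neocortex calls are isolated. Mef2c, a MADS-box factor, was at 305, 246 and 338 CPM in the neocortex and at 95.3, 81.7 and 88.0 CPM in CA1 (log2 difference -1.75, SE 0.12, edgeR adjusted p = 4.01e-06). Tbr1 (51.0 to 52.4 against 20.8 to 26.1 CPM), Emx1 (20.9 to 28.6 against 9.84 to 11.4 CPM) and Pou3f2 (45.3 to 48.4 against 18.0 to 19.8 CPM) were higher in the neocortex as well. On the CA1 side, Zbtb20, a repressor known for its part in hippocampal identity, was at 0.35 to 0.96 CPM against 3.56 to 5.94 CPM. Nr3c2, the mineralocorticoid receptor, was at 16.4, 10.8 and 17.6 CPM against 74.2, 117 and 99.5 CPM (log2 difference 2.70, SE 0.26, edgeR adjusted p = 4.10e-04). Bcl11b (also called Ctip2; 53.7 to 63.3 against 169 to 209 CPM), Bhlhe22 (42.5 to 46.6 against 98.9 to 102 CPM) and Lmo3 (66.3 to 73.0 against 132 to 151 CPM) completed the group.

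Markers of tissue next to the dissected regions were also read. Of 9 striatal markers tested, 3 were called higher in the neocortex (median log2 difference -0.99), among them Drd1, a dopamine receptor (10.2 to 15.3 against 4.74 to 6.39 CPM), and Ppp1r1b, which encodes the phosphatase inhibitor of dopamine-receptive neurons and has 15.7% of its exon length under opposite-strand exons (68.9 to 76.1 against 31.6 to 34.5 CPM). The Drd1 call was lost without D5138 or without the neocortex library of D5135. Of the 9 striatal markers, 6 were below 0 and 3 above, up to a log2 difference of 0.75. Summed, the list stood at 166 to 201 CPM in the neocortex and 96.2 to 107 CPM in CA1. Of 5 thalamic markers, 1 was called (median 0.40): Lhx9, at 0.19 to 0.66 CPM against 14.2 to 16.9 CPM in CA1. The list summed to 55.2 to 59.0 CPM in the neocortex and 80.1 to 100 CPM in CA1. Of 7 choroid plexus markers (median 0.19), Kl and Sostdc1 were called higher in CA1, while Ttr, the most abundant transcript of that tissue, was at 0.51 to 1.90 CPM in the neocortex and 1.20 to 2.82 CPM in CA1. Kcnj13, a potassium channel of that list, ran the other way at 0.57 to 1.29 CPM against 0.15 to 0.56 CPM and was not called (log2 difference -1.21, edgeR adjusted p = 0.0503; 49.1% of its exon length under opposite-strand exons). Without D5138, without the neocortex library of D5134 or with each animal as a block, 1 choroid plexus gene was called higher in the neocortex.

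Of 6 ependymal markers, 3 were called higher in CA1 (Ak7, Tmem212 and Ccdc153, all at under 3 CPM; list median 0.84); 1 was left without either library of D5134 or without the CA1 library of D5135. Foxj1 (log2 difference 0.33) and Rsph1 (0.11), also of the ependymal list, were not called. Of 10 meningeal markers, Slc22a6 and Aldh1a2 were called higher in the neocortex (list median -0.43). Of the 10, 7 were below 0 and 3 above. Dcn was not called, at 9.64 to 14.84 CPM in the neocortex and 14.75 to 32.3 CPM in CA1 (log2 difference 0.84, edgeR adjusted p = 0.120). The meningeal list summed to 94.2 to 180 CPM in the neocortex and 99.4 to 111 CPM in CA1. Without the CA1 library of D5134, the CA1 library of D5135 or the neocortex library of D5135, 1 of these meningeal calls was left, and with each animal as a block 4 genes of the list were called higher in the neocortex. Without the CA1 library of D5134, 1 was called higher in CA1. What part such tissue had in the differences was not tested.

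Glial and vascular lists held 1 call. Gfap, the intermediate filament of astrocytes, was at 99.2, 108 and 129 CPM in the neocortex and at 336, 358 and 377 CPM in CA1 (log2 difference 1.68, SE 0.09, edgeR adjusted p = 1.05e-07), the only one of 11 astrocyte markers called (median 0.05). Gfap is not an isolated gene. Of the 11, 7 had an adjusted p under 0.05. In all, 6 members were above 0 and 5 below, from -0.80 for Aldh1l1 to 1.68 for Gfap. Slc1a3, an astrocytic glutamate transporter, was at 602 to 649 CPM against 583 to 610.1 CPM. None of 12 oligodendrocyte markers was called, though all were above 0, with a median log2 difference of 0.27 and 8 at an adjusted p under 0.05. None of 7 oligodendrocyte precursor markers was called (median 0.32). None of 13 microglial markers was called, but all lay below 0, with a median of -0.56 and 11 at an adjusted p under 0.05. Csf1r, the receptor that microglia depend on, was at 134 to 137 CPM against 96.5 to 100.3 CPM, with 15.1% of its exon length under opposite-strand exons. None of 8 endothelial markers was called, and all 8 lay below 0 (median -0.49, 5 at an adjusted p under 0.05).

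**Figure D4:**
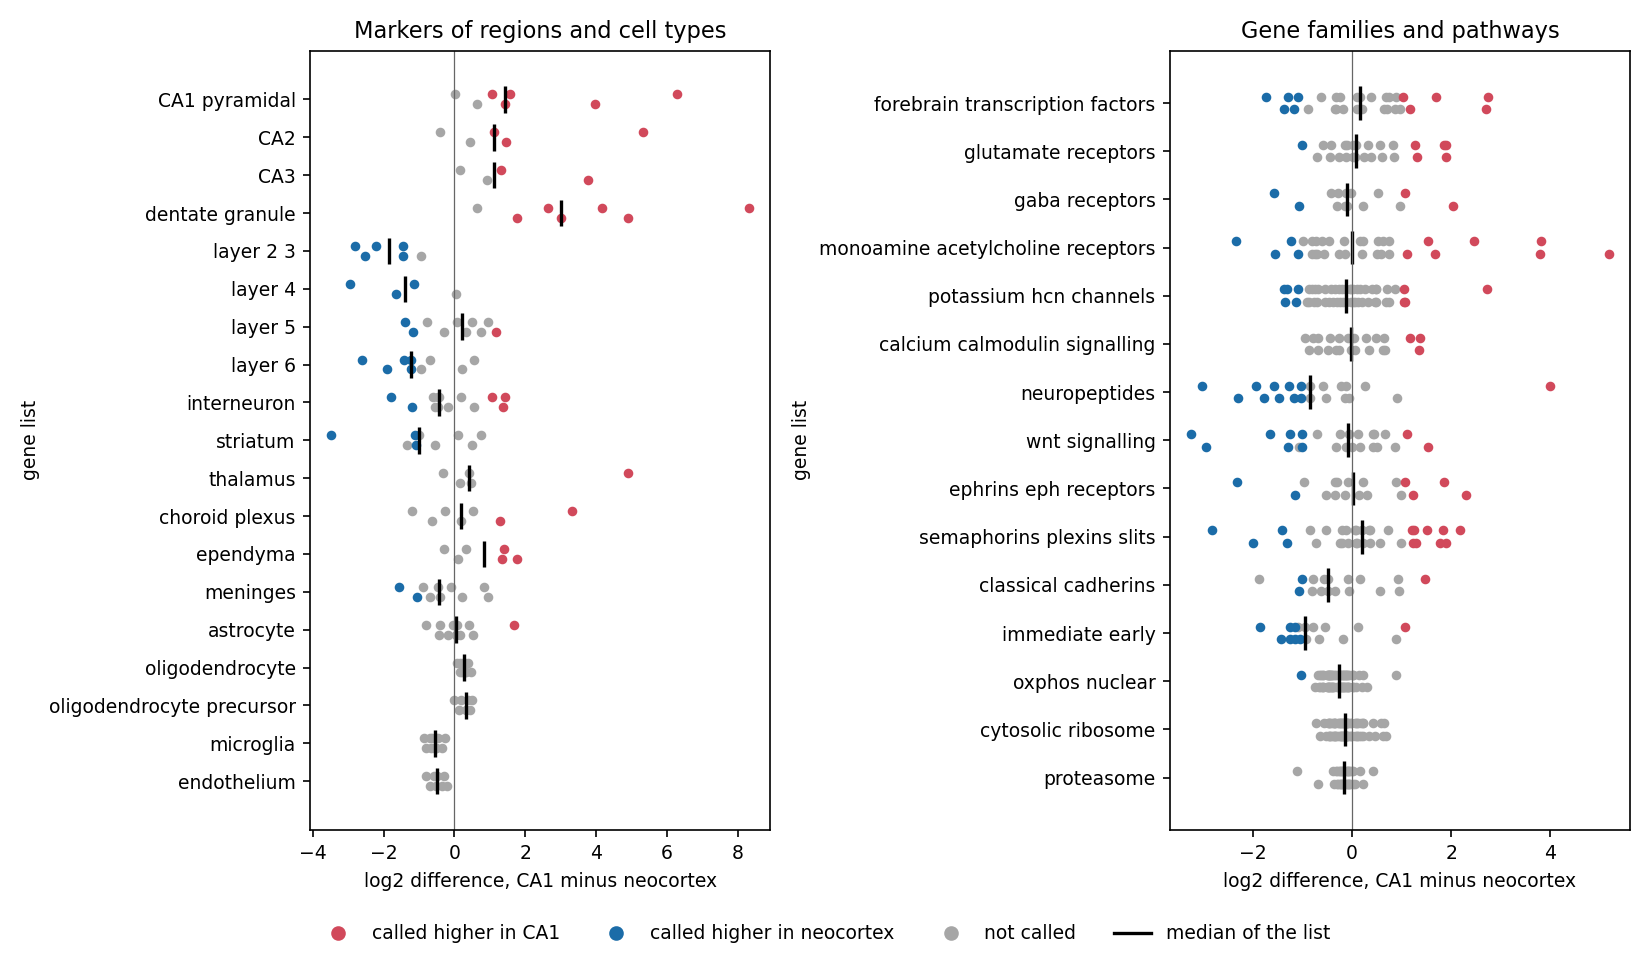
Log2 difference (CA1 minus neocortex) of the tested members of 34 gene lists; each point is a gene, coloured by whether it was called and in which direction, and black bars are list medians. Dentate granule markers have a median of 3.01 and layer 2/3 markers one of -1.83, and no ribosomal or proteasome gene is called.

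Interneuron markers were called in both directions. Of 13 tested, 2 were called higher in the neocortex and 3 higher in CA1, with a median log2 difference of -0.43; both neocortex calls and 1 of the CA1 calls are isolated. Vip, the peptide of one class of cortical interneurons, was at 71.8, 77.9 and 73.0 CPM in the neocortex and at 26.0, 20.99 and 18.2 CPM in CA1 (log2 difference -1.78, SE 0.11, edgeR adjusted p = 1.24e-07). Pvalb, the calcium buffer of fast-spiking cells, was at 83.9 to 108 CPM against 39.0 to 44.2 CPM. Calb2, which encodes calretinin, was at 10.9 to 12 CPM against 23.0 to 39.6 CPM, Nos1, nitric oxide synthase, at 9.33 to 16.9 CPM against 34.7 to 36.6 CPM, and Dlx1 at 11.2 to 13.4 CPM against 24.7 to 27.3 CPM. The Dlx1 call was lost without the neocortex library of D5134. Gad1, the GABA-making enzyme common to most interneurons, was at 496 to 511 CPM against 349 to 385 CPM, a log2 difference of -0.45 (SE 0.05).

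Neuropeptide genes were called higher in the neocortex for 10 of 21 tested and higher in CA1 for 1, with a median log2 difference of -0.85; 7 of the 10 and the 1 are isolated genes. Npy, neuropeptide Y, was at 92.2, 113 and 89.6 CPM in the neocortex and at 31.5, 33.4 and 33.4 CPM in CA1 (log2 difference -1.58, SE 0.09, edgeR adjusted p = 1.21e-08). Its receptor Npy2r ran the other way, as given above. Crh, corticotropin-releasing hormone, was at 5.03 to 7.63 CPM against 1.49 to 2.15 CPM, and Pdyn, prodynorphin, at 40.4 to 41.5 CPM against 12.6 to 17.4 CPM. Penk, proenkephalin, was at 50.3 to 69.5 CPM against 25.4 to 28.7 CPM, with 14.3% of its exon length under opposite-strand exons. Cartpt, Vip, Trh, Cort, Tac2 and Adcyap1 were the other neocortex calls, and Nts was the CA1 one. Without D5138, or with each animal as a block, 2 were called higher in CA1.

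Glutamate receptor genes were called higher in CA1 for 5 of 25 tested and higher in the neocortex for 1, with a median log2 difference of 0.08; 2 of the CA1 calls and the neocortex one are isolated. Gria1, an AMPA receptor subunit, was at 297, 285 and 298 CPM in the neocortex and at 1019, 1112 and 1148 CPM in CA1 (log2 difference 1.90, SE 0.05, edgeR adjusted p = 1.49e-11). Gria2, the subunit that limits calcium entry, was at 610.4 to 666 CPM against 902 to 998 CPM, a log2 difference of 0.56 (SE 0.05). Grin1, the obligate NMDA receptor subunit, was level at 598 to 608 CPM and 590.0 to 627 CPM, with 13.5% of its exon length under opposite-strand exons. Grin2a was at 7.54 to 8.74 CPM against 24.6 to 37.9 CPM, and Grm5, a metabotropic receptor, at 42.4 to 71.8 CPM against 126 to 168 CPM. Grik4, listed above with CA3, and Grin3b, under 1 CPM in all libraries and with 32.1% of its exon length under opposite-strand exons, were the other CA1 calls. Gria4 was at 137 to 156 CPM against 71.4 to 77.3 CPM (log2 difference -1.02, SE 0.06) and fell below the limit with each animal as a block (-0.96) and without D5129, the neocortex library of D5135 or D5138.

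GABA receptor genes were called in both directions. The share of 14.3% each way stands beside 7.11% (CA1) and 3.82% (neocortex) of all tested genes. Of 14 GABA receptor genes tested, Gabra5 and Gabra2 were called higher in CA1 and Gabrd and Gabra3 higher in the neocortex (median log2 difference -0.11); 1 call in each direction is isolated. Gabra5, the subunit of extrasynaptic receptors in hippocampal pyramidal neurons, was at 49.8, 41.1 and 53.1 CPM in the neocortex and at 186, 199 and 207 CPM in CA1 (log2 difference 2.04, SE 0.09, edgeR adjusted p = 3.30e-09). Gabrd, the delta subunit, was at 94.2, 104 and 86.7 CPM against 28.9, 32.9 and 33.9 CPM (log2 difference -1.57, SE 0.08, edgeR adjusted p = 5.51e-09). Gabra3 was at 149 to 162 CPM against 68.8 to 79.0 CPM. Gabra2 was at 50.7 to 61.6 CPM against 113 to 132 CPM, and its log2 difference of 1.07 fell below 1 without the neocortex library of D5134.

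Calcium and calmodulin signalling genes gave 3 CA1 calls and no neocortex call among 23 tested, with a median log2 difference of -0.02; 1 of the calls is isolated. Of the 23, 11 were above 0 and 12 below. Hpca was at 626, 692 and 645 CPM in the neocortex and at 1415, 1749 and 1834 CPM in CA1 (log2 difference 1.35, SE 0.09, edgeR adjusted p = 9.37e-07). Calb2, given above with the interneuron markers, was also called. Genes below the limit at an edgeR adjusted p under 0.05 lay on both sides. Those lower in CA1 included Camk2d (log2 difference -0.96), Pcp4 (-0.87), Camk4 (-0.78) and Nrgn (-0.68). Those higher in CA1 included Ppp3ca (0.66), Camk2b (0.65), Prkca (0.63) and Camk1d (0.49). Without either library of D5134, 1 gene of the list was called higher in the neocortex. Camk2a, the kinase whose promoter drives Cre in the KO mice, was at 1815 to 2007 CPM against 2146 to 2481 CPM (log2 difference 0.27, SE 0.06).

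Receptors for monoamines and acetylcholine were called higher in CA1 for 7 of 32 tested and higher in the neocortex for 4, with a median log2 difference of 0.01. On the CA1 side were 3 serotonin receptors: Htr4, Htr5b (0.55 to 0.92 against 2.90 to 5.58 CPM) and Htr1a, an autoreceptor and postsynaptic inhibitory receptor. Htr1a was at 14.6, 15.3 and 14.7 CPM in the neocortex and at 50.2, 46.7 and 46.0 CPM in CA1 (log2 difference 1.68, SE 0.07, edgeR adjusted p = 7.47e-10). Drd5, a dopamine receptor, was at 1.27 to 1.56 CPM against 18.4 to 19.4 CPM, but 48.6% of its exon length lies under opposite-strand exons. Chrna7, a nicotinic receptor subunit, was at 4.94 to 8.38 CPM against 17.1 to 26.8 CPM, and Chrna5 and Chrm5 were at lower levels. On the neocortex side, Adra1b, an adrenergic receptor, was at 23.9, 26.4 and 22.4 CPM against 4.38, 5.26 and 4.57 CPM (log2 difference -2.35, SE 0.11, edgeR adjusted p = 1.75e-09). Adrb1 was at 35.2 to 35.9 CPM against 14.3 to 15.9 CPM and Hrh1, a histamine receptor, at 19.8 to 25.5 CPM against 5.67 to 8.80 CPM. Drd1 was the fourth. All 4 neocortex calls and 4 of the 7 CA1 calls are isolated genes.

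Of 51 potassium and HCN channel genes, 4 were called higher in CA1 and 5 higher in the neocortex, with a median log2 difference of -0.12; 2 and 4 of these are isolated. The shares of 7.84% and 9.8% stand beside 7.11% and 3.82% of all tested genes, so the CA1 count is near the background. Kcng2, a modifier subunit, was at 2.79 to 3.58 CPM in the neocortex and at 19.2 to 21.2 CPM in CA1 (log2 difference 2.72, SE 0.12, edgeR adjusted p = 1.25e-09). Kcnf1, another silent modifier, was at 178, 159 and 165 CPM against 72.0, 58.0 and 62.6 CPM (log2 difference -1.38, SE 0.08, edgeR adjusted p = 1.72e-08). Kcnv1 (112 to 118 against 45.3 to 49.3 CPM) and Kcns1 (23.4 to 28.3 against 9.90 to 11.1 CPM), of the same kind, were higher in the neocortex as well. Kcnk3, a leak channel, and Kcnh5 were the other neocortex calls, and Kcnh5 stood at -0.95 with each animal as a block and lost its call without D5129. Kcng1, Kcnab1 and Kcng3 had log2 differences of 1.05 to 1.06. The CA1 count of 4 was 1 without the neocortex library of D5134, 2 without D5129 and 2 without the CA1 library of D5135.

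Axon guidance genes were called in both directions. Of 33 semaphorins, plexins, neuropilins, slits and their receptors, 9 were higher in CA1 and 4 higher in the neocortex, with a median log2 difference of 0.20; 2 of the 9 and 1 of the 4 are isolated. Slit1, a repellent ligand, was at 56.7, 61.4 and 65.3 CPM in the neocortex and at 266, 295 and 270.4 CPM in CA1 (log2 difference 2.18, SE 0.07, edgeR adjusted p = 2.31e-11). Nrp1 (31.4 to 32.3 against 110.4 to 117 CPM) and Nrp2 (15.1 to 23.1 against 60.6 to 74.6 CPM), the neuropilin co-receptors of class 3 semaphorins, were both higher in CA1. Sema3a, a ligand of Nrp1, was higher in the neocortex, at 34.2, 37.1 and 30.5 CPM against 5.64, 2.999 and 5.75 CPM (log2 difference -2.83, SE 0.21, edgeR adjusted p = 9.67e-06). Sema3f, a ligand of Nrp2, was also higher there, at 12.4 to 15.8 CPM against 4.93 to 5.61 CPM. Plxnd1 was at 114 to 135 CPM against 29.0 to 33.8 CPM, while its ligand Sema3e was at 30.9 to 33.0 CPM against 70.3 to 82.5 CPM. For these 3 ligands and their receptors, the tissue with more of the ligand had less of the receptor; the pairs were set side by side after their values were seen.

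Of 18 ephrin and Eph receptor genes, 4 were called higher in CA1 and 2 higher in the neocortex, with a median log2 difference of 0.02; 2 of the 4 and both neocortex calls are isolated. Efna5, an ephrin ligand, was at 35.6, 34.9 and 34.7 CPM in the neocortex and at 9.06, 5.91 and 6.13 CPM in CA1 (log2 difference -2.33, SE 0.14, edgeR adjusted p = 4.64e-08). Of the EphA receptors that bind such ligands, Epha6 (8.57 to 11.1 against 38.9 to 54.0 CPM), Epha7 (50.6 to 51.7 against 157 to 223 CPM) and Epha3 (6.57 to 7.49 against 16.3 to 17.4 CPM) were higher in CA1. Epha8 was higher in the neocortex, and Epha4 had a log2 difference of 0.98 (SE 0.06). The other CA1 call was Efnb3.

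Wnt signalling genes were called higher in the neocortex for 7 of 24 tested and higher in CA1 for 2, with a median log2 difference of -0.09; 3 of the 7 and both CA1 calls are isolated. Dkkl1, a secreted relative of the Dickkopf inhibitors, was at 24.5, 28.2 and 25.6 CPM in the neocortex and at 3.60, 2.52 and 2.17 CPM in CA1 (log2 difference -3.25, SE 0.15, edgeR adjusted p = 2.62e-09). Among ligands, Wnt9a (24.2 to 29.5 against 7.25 to 8.77 CPM), Wnt10a (11.5 to 14.5 against 5.19 to 5.57 CPM) and Wnt4 (31.8 to 37.6 against 13.4 to 16.2 CPM) were higher in the neocortex. Rspo1, Sfrp1 and Sfrp2 were the other neocortex calls. Of the 24, 14 were below 0 and 10 above. Wnt7b was higher in CA1 but not called (30.1 to 40.4 against 49.9 to 62.5 CPM, log2 difference 0.67). The same held for Dkk3 (log2 difference 0.42). Wnt2b and Wnt16 were the CA1 calls, at 4.01 CPM or less in every library. They make up 8.33% of the list, near the 7.11% of all tested genes. With each animal as a block, edgeR left 0 of these CA1 calls and limma-voom 1; without D5129, 1 was left.

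Of 17 classical cadherins (median log2 difference -0.49), Cdh9 was called higher in CA1 (12.7 to 15.6 against 37.2 to 42.4 CPM). Cdh22 and Cdh6 were called higher in the neocortex, with log2 differences of -1.02 and -1.08. The CA1 share of 5.88% is near the 7.11% of all tested genes, and the neocortex share of 11.8% stands beside 3.82%. Cdh6 stood at -0.93 with each animal as a block and lost its call without the neocortex library of D5135, and Cdh22 lost its call without the neocortex library of D5134. Without the neocortex library of D5135, 2 cadherins were called higher in CA1 and 1 higher in the neocortex, and without the CA1 library of D5134, 2 were called higher in CA1.

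Immediate early genes, which neurons switch on within minutes of activity, were called higher in the neocortex for 7 of 17 tested and higher in CA1 for 1, with a median log2 difference of -0.96; 5 of the 7 are isolated and the CA1 call is not. Egr1, a zinc finger factor, was at 617, 523 and 613 CPM in the neocortex and at 214, 161 and 276 CPM in CA1 (log2 difference -1.43, SE 0.22, edgeR adjusted p = 0.00439). Arc, a regulator of synaptic AMPA receptors, was at 606, 572 and 587 CPM against 251, 185 and 302 CPM (log2 difference -1.26, SE 0.18, edgeR adjusted p = 0.00223). The other neocortex calls were Egr2, Egr3, Homer1, Dusp1 and Npas4, and Jun was the CA1 call (43.6 to 51.1 against 92.9 to 113 CPM). The shares of 41.2% (neocortex) and 5.88% (CA1) stand beside 3.82% and 7.11% of all tested genes. Tested against a fold of 2 itself, none of the 17 genes was called in either direction. The counts changed with single libraries: 3 neocortex calls were left without the CA1 library of D5135, 4 without the neocortex library of D5134 and 1 without both libraries of D5134. The CA1 call was lost without the CA1 library of D5135 or the neocortex library of D5134, and without D5129 or with each animal as a block 2 genes were called higher in CA1. With each animal as a block, Homer1 and Egr3 stood at -0.91 and -0.88.

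Lists of genes that every cell uses held few calls. None of 78 ribosomal protein genes and none of 39 proteasome genes was called at the limit used, with median log2 differences of -0.14 and -0.16, although 34 and 15 of them had an adjusted p under 0.05. Of 79 nuclear genes of oxidative phosphorylation, 1 was called higher in the neocortex: Cox6a2, at 6 to 7.32 CPM against 3.16 to 3.51 CPM, with 10.3% of its exon length under opposite-strand exons and not called without the neocortex library of D5134. The median of that list was -0.26. With offsets for gene length and GC content, 2 ribosomal and 4 oxidative phosphorylation genes were called higher in the neocortex.

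The same tissue comparison was repeated in the KO libraries, which come from other animals but share the kit difference. Dicer1, the targeted gene, was counted at 59.8 to 64.1 CPM in the KO neocortex and 70.2 to 71.8 CPM in the KO CA1, against 60.1 to 68 CPM and 67.4 to 74 CPM in controls on the same scale. These counts cover the whole gene and do not check the loss of a floxed exon. Of 15354 protein-coding genes tested in KO libraries, 1168 (7.61%) were called higher in CA1 and 503 (3.28%) higher in the neocortex. Of the 1061 control calls for CA1, 895 (84.4%) were also called in KO, which were 76.6% of the KO calls. Of the 570 control calls for the neocortex, 363 (63.7%) were also called in KO, which were 72.2% of the KO calls. Among 4879 isolated genes tested in KO, 5.9% were called higher in CA1 and 4.41% higher in the neocortex, and the calls shared with controls were 197 of 250 (78.8%) and 157 of 254 (61.8%). Wnt1, with 2 reads in the control neocortex and 33 in the control CA1, was the 1 gene called in opposite directions.

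Of the 126 genes covered by the naming rule and called in controls, 103 were called in the same direction in KO, and of the other 23 all but 1 kept their sign. In the KO libraries the log2 difference was 3.65 for Fibcd1, 1.64 for Gria1, 1.90 for Gabra5, 1.94 for Slit1 and 3.02 for Prox1. On the neocortex side it was -2.71 for Lamp5, -2.18 for Mef2c, -1.84 for Gabrd, -3.25 for Sema3a and -1.68 for Npy. Neurod6 and Pou3f1, called in controls, stood at 0.91 and 0.70 in KO and were not called there. Otof went from -1.46 to -0.73, Slc22a6 from -1.56 to -0.12 and Aldh1a2 from -1.06 to 0.28, none of them called in KO. The meningeal list had 2 neocortex calls in controls and 2 CA1 calls in KO, and the ependymal genes called in controls, Ak7, Ccdc153 and Tmem212, stood at 0.77, 1.25 and 0.81 in KO and did not pass there. The test of the change between genotypes passed for 18 of 14932 protein-coding genes, 5 of them among the 1631 called in controls, so a call in controls alone does not show that the tissues differ less in KO.

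**Figure D5:**
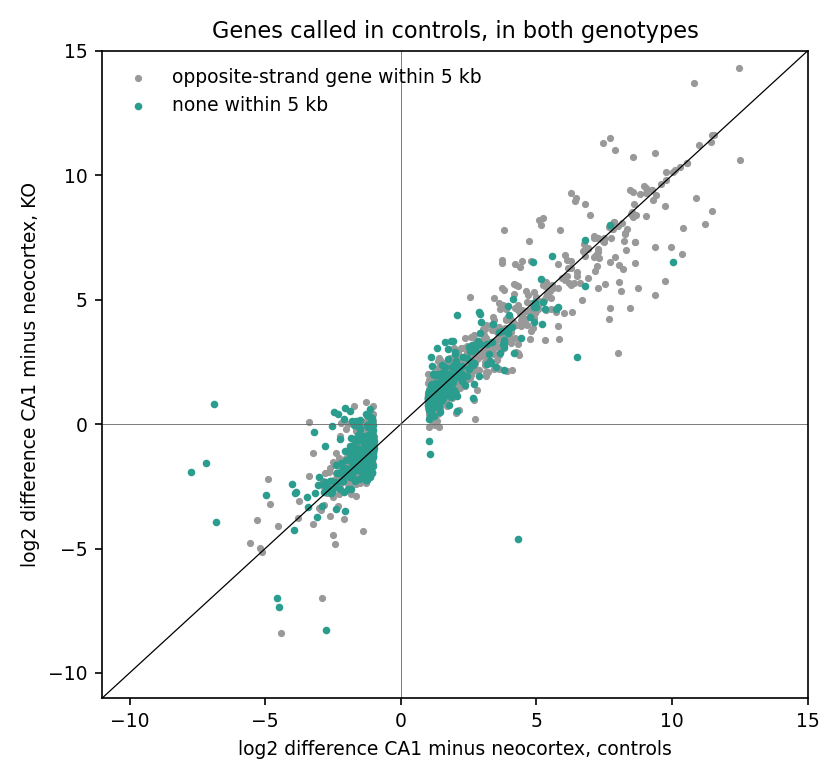
Log2 difference between CA1 and neocortex in KO libraries (vertical axis) against that in controls (horizontal axis) for protein-coding genes called in controls; points are genes, coloured by whether an opposite-strand gene lies within 5 kb, and the line marks equal values. Most points keep their side of 0, with 1038 CA1 and 541 neocortex genes of the same sign.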

How the data were processed

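The deposited table holds whole-number read counts per Ensembl gene for the neocortex and CA1 libraries, 39017 genes and 92 ERCC entries, with no normalization. The tools named are GSNAP, SAMtools, bedtools and FastQC, on GRCm38, per the submitters' processing notes; their versions, the counting rule and its strand setting are not given in the sources used here. Symbols, positions and opposite-strand genes came from GENCODE M21, matched by identifier for 37693 genes (96.6%). Unmatched identifiers held 0.338% to 0.460% of a library's reads. Values of genes with near-identical relatives depend on how shared reads were counted.

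Counts were analysed with edgeR 4.0.16 in R 4.3.3: TMM scaling, filterByExpr, a robust quasi-likelihood F-test on 17937 genes without ERCC entries, and two-sided Benjamini-Hochberg adjusted p-values. CPM used TMM-scaled totals and are not corrected for gene length, so levels are compared within genes only. The SE is the log2 difference divided by the square root of F. Errors and tests rest on 3 libraries from 3 animals per tissue. An exact permutation test of 3 against 3 cannot go below 0.1, so none was used. On simulated counts for the control comparison (17841 genes), all of 100 genes with a true log2 difference of 1.5 and all of 100 with one of 2 were called, with 5 false calls. The changed genes had a mean of at least 1 CPM, so genes below that or with differences nearer the limit of 1 were not covered. The simulated counts were drawn from the kind of model that edgeR fits, with dispersions it had estimated from these libraries. Recovery therefore checks the running of the test and not the calls in the real libraries. The simulated counts held no effect of kit, animal or sex.

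Alternatives used limma 3.58.1, DESeq2 1.42.0, other scalings and filters, offsets for length and GC content, gene subsets, animal as a block and left-out libraries. D5134 and D5135 each gave both tissues by the labels. Their deviations from the group means correlated at 0.237 and 0.269 between tissues, against -0.285 to 0.0481 for other animals. Deviations within a tissue depend on each other, so these values do not test the pairing, which comes from the labels. The fit with animal as a block has 1 residual degree of freedom. D5129 and D5138 gave 1 tissue each, so the tissue difference in that fit rests on D5134 and D5135. The main fit did not use the pairing.

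The comparison and its 34 gene lists, drawn from textbook knowledge, were chosen with earlier results of these data known. Genes were named by rule: the 6 markers; the 12 largest called differences in each direction with at least 5 CPM in the higher tissue, no overlap between groups and under 10% opposite-strand exon overlap; and, of each list, up to 5 called members of at least 1 CPM and 2 abundant ones not called. The 12 largest isolated genes in each direction, and list members beyond that rule, were named after their values were seen. A few genes that these rules cover are counted but not reported here.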

Additional observations from a re-analysis of the deposited data

Results flagged for a closer look

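The tissue difference itself differed between control and KO animals for 8 of the genes in the lists or among those called, 7 of them given here, by edgeR's interaction test over all 11 libraries. C1qa and C1qc, parts of complement component C1q made by microglia, were lower in the CA1 of controls (log2 differences -0.63 and -0.85) and near level in KO (0.03 and -0.15), a change of 0.679 (adjusted p = 0.0371) and 0.713 (adjusted p = 0.0246). Frzb, a secreted Wnt antagonist, went from -0.05 in controls to 1.09 in KO, a change of 1.17 (adjusted p = 0.0360). Plxna4, a plexin receptor, was higher in CA1 in both genotypes, at 1.25 and 0.69, a change of -0.547 (adjusted p = 0.0313).

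The changes of the other 3 rest on few reads in controls. Sh3rf2 had 52 reads in the neocortex and 0 in CA1, and its change was 7.78. Trh, the precursor of thyrotropin-releasing hormone, had 183 and 25 reads and a change of 2.74. Wnt1 had 2 and 33 reads and a change of -8.92.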

How the results depend on the processing

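The counts of 1061 genes higher in CA1 and 570 higher in the neocortex stayed within 1.5 times under other scalings, filters, tools and libraries, except in gene subsets and with a stricter test. Fitting only genes without any opposite-strand exon overlap gave 570 higher in CA1. Fitting only genes with no opposite-strand gene within 5 kb, chosen after seeing the data, gave 257 and 222. Testing against a fold of 2 itself gave 263 higher in the neocortex and ended 33 of the 126 calls that the naming rule covers. Under that test no call was left in the immediate early, layer 5, ependymal and meningeal lists. Of the neocortex calls, 2 of 5 were left for layer 6 and 6 of 10 for neuropeptides. DESeq2 gave 1041 and 549. Leaving out 1 library gave 1037 to 1157 and 547 to 626, and in KO 1011 to 1156 and 436 to 565.

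With the replicate block on animal, edgeR gave 1034 and 564 calls, and 1144 and 508 in KO. Together with the length and GC offsets the paired fit gave 1023 and 588. Because the edgeR block has 1 residual degree of freedom and gave very small p-values for most genes, limma-voom with the same block was added after seeing the data, and it gave 1062 and 581. Of 126 called genes that the naming rule covers, the block in either tool ended calls that included those of Ccn2, Cdh6, Egr3, Gria4, Homer1, Kcnh5 and Lars2. Of the 126, 35 lost the call under at least 1 alternative and 16 of them when 1 library was left out; none reversed. Scaling factors from protein-coding genes ended the calls of Cdh22, Cox6a2 and Gria4, the length and GC offsets that of Cdh22, the fit of all 11 libraries that of Arc, and no filter those of Ak7, Aldh1a2 and Ccn2. The smallest lists rest on few genes, and genes under 1 CPM on few reads.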
